A study of Mus musculus with 5 samples.

Results

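The regions described here had a ZFP541 chromatin immunoprecipitation (ChIP) peak in both wild-type libraries and a summit inside a protein-coding gene, away from gene ends. Only the summit was held to this rule, and some regions reached past an end of their gene. Peaks of wild-type replicates 1 and 2 that overlapped by at least 1 bp were joined, joined regions that touched a peak of the knockout library were dropped, and the summit of the widest replicate 1 peak gave each region its position. A region was kept when its summit lay inside a protein-coding gene of chromosomes 1 to 19 and more than 1 kb from every protein-coding gene end. The rule kept 1130 of the 5254 regions on those chromosomes that touched no knockout peak, a share of 21.5% (95% exact interval 20.4 to 22.6), out of 5457 joined regions in the whole series. Another 3786 regions (72.1%) had their summit within 1 kb of a coding gene end, and 338 (6.43%) lay outside coding genes.

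The study mapped where ZFP541 sits on the genome of male germ cells in late meiotic prophase. Testis cells of adult C57BL/6 mice were enriched for pachytene and diplotene spermatocytes by STA-PUT sedimentation, cross-linked in 1% formaldehyde for 10 min and precipitated with a rabbit antibody raised against residues 1 to 300 of ZFP541. There were 2 wild-type (WT) ZFP541 ChIP libraries and 1 from Zfp541-/- mice, each with its own peak list, and 2 wild-type input libraries that were not analysed here. The preparations are enriched, not pure, and the number of mice behind each library is not given in the sources used here. The knockout list held 256 peaks, beside 8236 and 10371 in wild-type replicates 1 and 2. How deeply each library was sequenced is unknown, since the lists hold no counts, and 1 knockout library beside 2 wild-type libraries allows no test between genotypes.

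ZFP541 is a germ cell zinc finger protein that works with KCTD19 and the histone deacetylases HDAC1 and HDAC2 in spermatocytes. Many mammalian genes have more than 1 promoter, so a transcript can begin deep inside the longest annotated gene, and long noncoding RNAs also begin within the bodies of coding genes. Promoters rich in the dinucleotide CpG, known as CpG islands, are usually free of DNA methylation and are common at widely expressed genes.

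Some of the strong members sat directly on a start of transcription annotated inside the gene, while others had none nearby. The 300-base windows below run from 250 bases before to 50 bases after such a start, are written 5′ to 3′ on the strand of transcription, and were taken from the RefSeq start table of the mouse build GRCm38.p6. Capitals mark each CpG. The windows of Nup210, Kdm2b, Celf2 and Mbnl1 that lay under a summit are shown because they were among the 12 best ranked members with a summit inside such a window. The windows at the outer 5′ end of Kdm2b, Celf2 and Mbnl1 are shown beside them because no region lay within 1 kb of those starts.
Nup210, start inside the gene, chr6:91116777-91117076, minus strand: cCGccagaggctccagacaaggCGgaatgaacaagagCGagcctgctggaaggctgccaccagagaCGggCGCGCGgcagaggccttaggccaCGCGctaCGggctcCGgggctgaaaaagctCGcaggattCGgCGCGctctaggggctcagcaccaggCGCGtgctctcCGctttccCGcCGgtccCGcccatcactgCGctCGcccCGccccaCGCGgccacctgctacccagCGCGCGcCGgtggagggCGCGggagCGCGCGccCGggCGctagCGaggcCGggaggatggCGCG
Kdm2b, start inside the gene, chr5:122900318-122900617, minus strand: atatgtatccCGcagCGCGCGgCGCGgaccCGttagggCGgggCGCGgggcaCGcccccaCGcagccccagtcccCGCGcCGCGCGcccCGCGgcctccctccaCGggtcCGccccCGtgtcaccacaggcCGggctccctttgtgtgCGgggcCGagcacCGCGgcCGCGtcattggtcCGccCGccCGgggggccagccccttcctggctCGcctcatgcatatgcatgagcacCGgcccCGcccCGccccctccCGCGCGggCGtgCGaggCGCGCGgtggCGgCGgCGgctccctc
Kdm2b, start at the outer 5′ end, chr5:122989050-122989349, minus strand: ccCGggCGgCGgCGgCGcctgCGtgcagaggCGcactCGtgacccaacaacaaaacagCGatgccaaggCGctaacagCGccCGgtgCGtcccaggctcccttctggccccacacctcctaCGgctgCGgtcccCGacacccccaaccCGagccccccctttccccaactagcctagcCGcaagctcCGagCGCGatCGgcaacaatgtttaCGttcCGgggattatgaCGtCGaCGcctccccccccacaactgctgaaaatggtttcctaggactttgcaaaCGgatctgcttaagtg
Celf2, start inside the gene, chr2:6871986-6872285, minus strand: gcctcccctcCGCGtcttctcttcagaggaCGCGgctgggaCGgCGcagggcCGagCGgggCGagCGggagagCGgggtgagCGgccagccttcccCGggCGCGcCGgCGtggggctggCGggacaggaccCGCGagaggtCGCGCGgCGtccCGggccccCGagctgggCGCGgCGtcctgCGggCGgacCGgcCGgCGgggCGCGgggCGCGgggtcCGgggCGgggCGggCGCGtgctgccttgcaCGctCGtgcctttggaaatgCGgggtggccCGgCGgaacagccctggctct
Celf2, start at the outer 5′ end, chr2:7395951-7396250, minus strand: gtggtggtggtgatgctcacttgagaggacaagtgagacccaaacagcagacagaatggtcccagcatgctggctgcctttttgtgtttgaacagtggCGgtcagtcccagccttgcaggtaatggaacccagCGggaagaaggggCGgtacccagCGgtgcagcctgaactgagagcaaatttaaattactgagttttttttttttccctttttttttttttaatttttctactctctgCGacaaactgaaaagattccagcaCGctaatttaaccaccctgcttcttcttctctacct
Mbnl1, start inside the gene, chr3:60500929-60501228, plus strand: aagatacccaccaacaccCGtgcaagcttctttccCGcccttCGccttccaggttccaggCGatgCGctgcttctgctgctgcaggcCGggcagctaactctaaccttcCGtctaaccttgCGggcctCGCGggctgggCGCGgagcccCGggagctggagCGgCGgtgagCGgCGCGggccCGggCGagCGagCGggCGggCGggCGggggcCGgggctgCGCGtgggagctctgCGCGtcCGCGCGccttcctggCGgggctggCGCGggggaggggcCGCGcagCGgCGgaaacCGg
Mbnl1, start at the outer 5′ end, chr3:60472580-60472879, plus strand: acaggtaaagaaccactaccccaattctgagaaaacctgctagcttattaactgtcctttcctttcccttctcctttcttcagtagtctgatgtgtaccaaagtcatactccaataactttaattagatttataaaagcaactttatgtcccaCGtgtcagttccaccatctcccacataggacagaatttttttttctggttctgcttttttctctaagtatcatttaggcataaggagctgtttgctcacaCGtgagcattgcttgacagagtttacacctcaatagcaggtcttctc

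The window under the Nup210 summit held 41 CpGs and the summit lay 41 bp upstream of the start. That start lay only 1496 bp from the nearest coding gene end, and the summit 1455 bp from the outer 5′ end of Nup210. The Nup210 region was thus close to the 1 kb limit of the rule. In Kdm2b the inner window held 47 CpGs, with the summit 2 bp upstream, and the outer window held 28, with the nearest region summit 36675 bp away. In Celf2 the inner window held 48 CpGs against 6 at the outer start printed above. In Mbnl1 the inner window held 41 and the outer window 2. The outer starts of Celf2 and Mbnl1 were therefore poor in CpG, whereas the outer start of Kdm2b was not.

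Fold enrichment here is the height of a peak over the local background of the peak caller MACS2, as the authors deposited it, and each region carries the fold of its strongest peak in each replicate. The strongest member by the mean of its ranks in both replicates was in Nup210, which encodes a membrane glycoprotein of the nuclear pore, at chr6:91115585-91118204, with a fold of 24.5 in replicate 1 and 20.8 in replicate 2. The next was in Casz1, a zinc finger transcription factor gene, at chr4:148899182-148902654, with folds of 20.4 and 21.5. It lay 53937 bp from the nearest coding gene end and 11609 bp from the nearest start in the table. Both stood far above the median member in both libraries.

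Ccdc177 had folds of 17.0 and 25.5 at chr12:80755780-80760748. Ywhaz, which encodes the 14-3-3 zeta protein, had 18.2 and 18.5 at chr15:36792367-36794544. Plvap, which encodes a protein of the diaphragms of endothelial cells, had 20.4 and 17.8 at chr8:71507350-71508913. None of these 3 had a start in the table within 1 kb of its summit, but the table holds no start of any of these 3 genes. Exoc3l2 had folds of 16.1 and 21.5, and Ttc34 had 15.8 and 20.5. Dact3, a regulator of Wnt signalling, had 16.1 and 18.01, and Nr3c2, the mineralocorticoid receptor gene, had 16.2 and 17.0. These 4 also had no table start within 1 kb. The Nr3c2 summit lay 1430 bp downstream of the nearest start, that of the long noncoding RNA Gm10649, and 1108 bp from the outer 5′ end of Nr3c2.

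Kdm2b, which encodes a histone H3K36 demethylase whose CXXC domain binds unmethylated CpG, ranked 10 with folds of 14.7 and 18.6 at chr5:122898596-122901656. Acot3, an acyl-CoA thioesterase gene, had 16.1 and 16.8, with the summit 40 bp upstream of the start of the long noncoding RNA Gm40474. Asb18 had 18.9 and 14.95, and Prdm12 had 13.8 and 20.1. Shroom3, a regulator of actin and cell shape, had 16.8 and 15.1, with the summit 108 bp downstream of a Shroom3 start and 67658 bp from any coding gene end. Of the 15 best ranked members, the Nup210, Kdm2b, Acot3 and Shroom3 regions had a table start within 1 kb and the other 11 did not. The lowest fold among the 15 was 13.8, in replicate 1 of the Prdm12 region.

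Across all 1130 members the median fold was 5.36 in replicate 1 (quartiles 3.93 and 7.86) and 5.71 in replicate 2 (4.03 and 8.39). Regions at coding gene ends had medians of 5.65 and 6.14, and regions outside coding genes had 4.29 and 4.36. The members thus lay a little below the gene-end regions and above the regions outside genes in each library. A fold of at least 10 in both replicates was reached by 118 members (10.4%, 95% exact interval 8.72 to 12.4), beside 8.96% of all regions of chromosomes 1 to 19. That share overlapped the background within its interval. In 164 members (14.5%) the peak of at least 1 replicate had a q-value above 0.05, beside 12.5% of all regions.

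**Figure D1:**
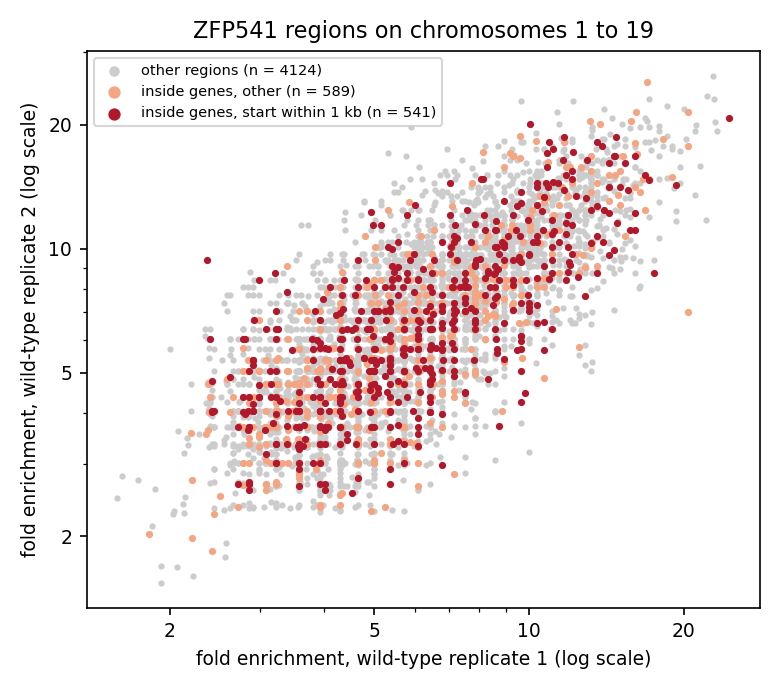
Fold enrichment of each region in wild-type replicate 1 (horizontal, log scale) against replicate 2 (vertical, log scale), with members inside genes in red where a table start lay within 1 kb and in orange otherwise (chromosome 18, which has no starts in the table, included), and all other regions in grey. The members spread over the same range as the other regions, and the Nup210 region is the red point farthest to the right, at 24.5 and 20.8.

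The replicates ranked the members alike to a moderate degree. The log2 fold of replicate 1 against that of replicate 2 had a Pearson r of 0.775 and a Spearman rho of 0.752 over 1130 members, beside 0.751 and 0.737 over all 5254 regions. These correlations run across regions of the same pair of libraries, and only regions with a peak in both could enter. The summits of the replicates lay within 200 bp of each other in 799 members (70.7%), with a median shift of 104 bp. Placed by the summit of replicate 2, 1065 of the 1130 (94.2%) would still have met the rule on position, and 64 would have fallen within 1 kb of a coding gene end.

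Among weak peaks, the share found in both libraries was lower inside genes than at gene ends. Of 2253 replicate 1 peaks with a summit inside a gene, 63.5% (61.5 to 65.5) overlapped a replicate 2 peak, beside 84.2% of 4851 peaks at gene ends and 46.5% of 1036 peaks outside genes. Of 3121 such replicate 2 peaks, 40.6% (38.9 to 42.3) overlapped a replicate 1 peak, beside 70.0% at gene ends. In the lowest quartile of fold the shares were 40.6% inside genes and 59.0% at gene ends for replicate 1, and 14.5% and 29.0% for replicate 2. In the highest quartile they were 99.8% and 99.5%, and 99.8% and 98.9%. The gap between the classes was therefore present among weak peaks in both lists and under 1 percentage point among the strongest. All intervals were computed by the Clopper-Pearson method and reflect only the error of counting, and no test was made, since peaks of 1 library are not replicates.

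**Figure D2:**
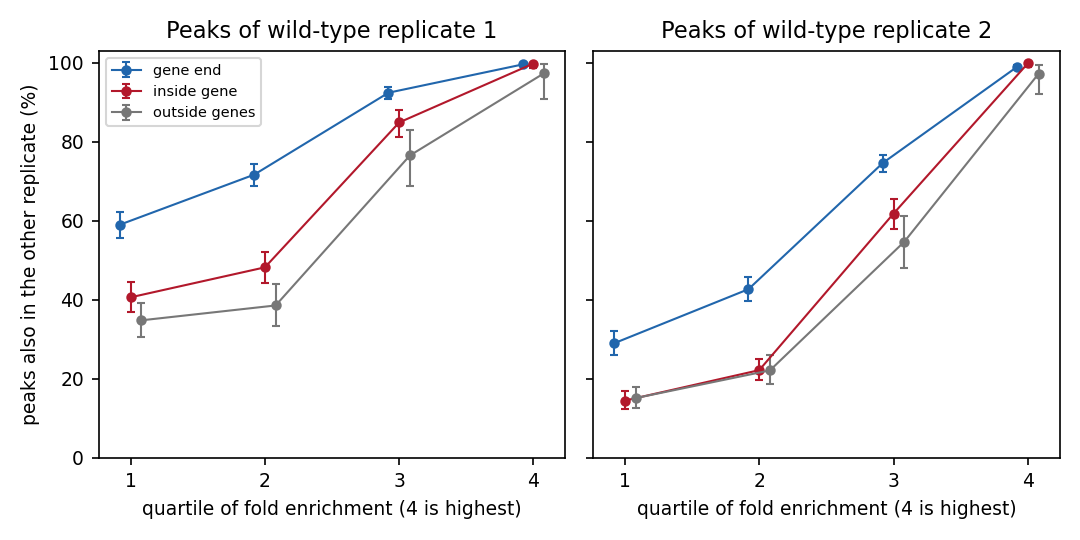
Share of peaks that overlapped a peak of the other wild-type replicate by at least 1 bp (vertical, percent, with 95% exact intervals) in each quartile of fold enrichment of the list (horizontal), for replicate 1 on the left and replicate 2 on the right, by position of the summit. Inside genes the share rose from 40.6% to 99.8% in replicate 1 and from 14.5% to 99.8% in replicate 2.

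The knockout library had few peaks at these places. Before the knockout rule was applied, 1162 joined regions of chromosomes 1 to 19 lay inside genes, and 32 of them (2.75%) touched a knockout peak, beside 2.38% of all 5382 joined regions there, 4 of 3790 at gene ends (0.106%) and 92 of 430 outside genes (21.4%). This contrast is the one the rule used, so the count is a description only. The 32 dropped regions had median folds of 2.32 and 2.22 in the wild-type libraries and 2.40 in the knockout. Ranked by the higher of the wild-type folds, the strongest was in Cmss1 and the overlapping Filip1l, with 5.83 and 6.22 against 4.32 in the knockout. Next came Zc3h7a, with 6.08 and 5.92 against 5.24, and Gphn, with 5.51 and 2.84 against 4.45. These folds come from lists called separately and cannot show whether the genotypes differed.

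Members were 1094 bp wide at the median (quartiles 691 and 1718, range 200 to 7066), close to the 1089.5 bp of gene-end regions. Those of 2 kb or more numbered 194 (17.2%), beside 14.5% of all regions. The widest lay over Bhlhe41, which encodes a circadian basic helix-loop-helix repressor, at chr6:145861509-145868574, with a width of 7066 bp and folds of 13.6 and 14.4 at its strongest points. It ran past the 5′ end of Bhlhe41, at base 145865420, and the summits of the replicates lay 3336 bp apart. Klhdc4 followed with 6087 bp, then Ptch1, the receptor of Hedgehog ligands, with 5388 bp, Ccdc177 with 4969 bp and Zfp993 with 4805 bp. The Ccdc177 region also ran past an end of its host. The Ptch1 region had folds of 9.64 and 13.8 and its summit lay 33 bp upstream of a Ptch1 start inside the gene, whereas the Klhdc4 region had 7.86 and 7.55 and no table start within 1 kb. Of these 5, the Klhdc4 region had the lowest folds in both libraries.

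The summits lay 3002 bp from the nearest coding gene end at the median (quartiles 1590 and 10291). At the threshold itself, the nearest members inside it were in Zc3h4 at 1002 bp (folds 5.36 and 5.37), Rdx at 1004 bp (12.95 and 16.4), Cnr1 at 1006 bp (3.20 and 8.73), Cdh2 at 1006 bp (3.21 and 3.69) and Sptbn4 at 1018 bp (6.07 and 6.71). The nearest regions left out were at Spast at 1000 bp (7.14 and 6.37), Nkpd1 at 1000 bp (7.70 and 7.58), Mtfr1 at 999 bp (3.31 and 4.26), Rimkla at 996 bp (4.64 and 3.69) and Adgrl1 at 996 bp (8.94 and 9.40). Both sides of the threshold held regions below 5 and above 7 in both libraries.

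The farthest members lay in very long genes. In Tenm3, a teneurin gene, 1 member lay 617609 bp from any coding gene end, with folds of 4.29 and 5.37, and another 330249 bp away, with 11.4 and 8.73. The Ptprd member, in a receptor tyrosine phosphatase gene, lay 508410 bp away (5.71 and 3.69). In Dab1, the gene of the adaptor protein of reelin signalling, the distance was 377078 bp (7.50 and 4.47), and in Celf2, which encodes a splicing regulator, it was 332356 bp (13.6 and 18.1). The Dab1 and Celf2 summits lay 228 bp and 15 bp from a start of their own gene, and the other 3 lay 104890 bp or more from any table start. The table holds no start of Ptprd itself.

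Members lay mostly towards the 5′ end of the host gene. The strand of the host was known from the start table for 912 members with a single host. Of these, 714 (78.3%, 75.5 to 80.9) lay nearer to the 5′ end than to the 3′ end, and 351 (38.5%) lay in the first 10% of the gene's length, beside 30 (3.29%) in the last 10%. Those within 2 kb of the 5′ end numbered 274 (30.0%) and those within 2 kb of the 3′ end 45 (4.93%), while 248 (27.2%) lay over 10 kb from both. The host's outer 5′ end is the limit of its longest annotated form, so a member near it need not be near an annotated start.

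**Figure D3:**
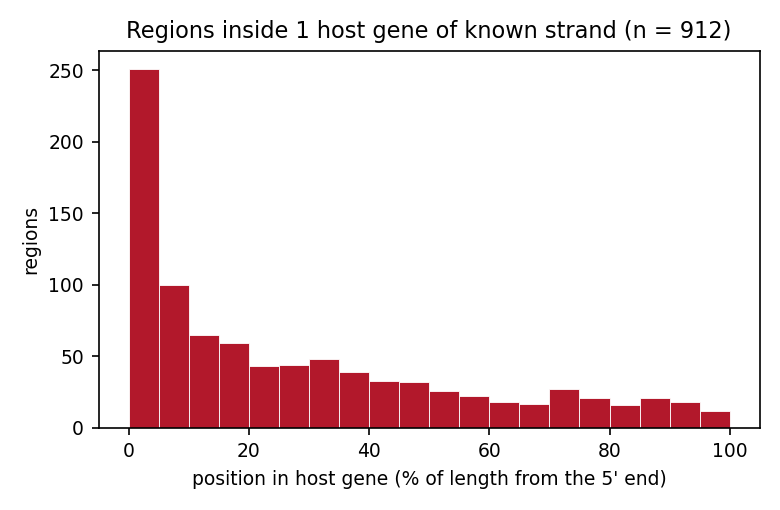
Position of the 912 members with a single host of known strand along that host (horizontal, percent of gene length from the 5′ end) as a count of regions per 5% of length (vertical). The first 10% of the length held 351 members and the last 10% held 30.

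Many members lay near an annotated start. The start table, which holds coding and long noncoding RNA genes and no entry on chromosome 18, could be used for 1086 members. Of these, 541 (49.8%, 46.8 to 52.8) had their summit within 1 kb of a start, beside 70.4% of all regions and 81.2% of the gene-end regions, which the 1 kb rule places near starts. Of the 909.5 Mb of sequence that meets the same rule on position, 1.32% lies that close to a start. The start belonged to the host itself for 481 members and to a long noncoding RNA for 60. Among the 912 members with a single host in the start table, 523 (57.3%) lay within 1 kb of a start. With peaks of only 1 wild-type library the share was lower, at 35.0% for replicate 1 and 27.8% for replicate 2. For the 1086 members, within 500 bp the count was 459 (42.3%), and 181 summits (16.7%) lay inside the 300-base window itself. Of the 541, 178 (32.9%) had the summit upstream of the start and the others at or downstream of it.

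**Figure D4:**
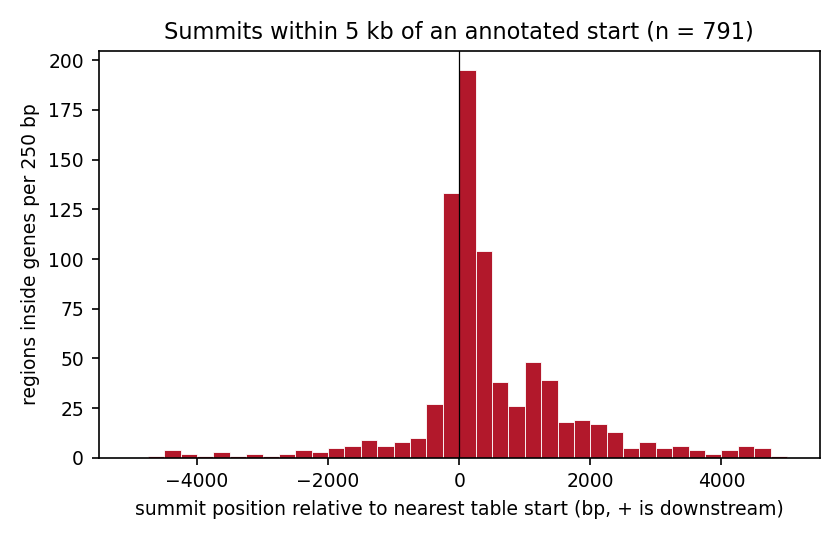
Position of member summits relative to the nearest start in the RefSeq table (horizontal, bp, positive downstream) as a count per 250 bp (vertical), for members within 5 kb of a start. Counts peak beside the start, and the smaller rise beyond 1000 bp downstream begins where the rule on gene ends begins to admit summits.

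Members near a start were taller and wider than the rest. With a start within 1 kb the median folds were 5.80 and 6.34 and the median width was 1235 bp, and without one the medians were 4.93 and 5.04 and 1009 bp. With members split by rank into 4 equal bins, from the strongest to the weakest, 58.0%, 55.6%, 51.9% and 33.9% had a start within 1 kb. The weakest bin therefore stood apart from the others. The share with a start was 65.3% of members within 2 kb of the host's 5′ end, 56.7% of the 605 farther than 2 kb from both ends, and 2 of 45 (4.44%, 0.543 to 15.1) near the 3′ end.

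The remaining 545 members had no table start within 1 kb, and 166 had none within 20 kb. After setting aside those near the end of a noncoding gene, 505 (46.5% of 1086) lay near neither. The 10 strongest of these were the regions in Casz1, Ccdc177, Ywhaz, Exoc3l2, Plvap, Ttc34, Dact3, Nr3c2, Asb18 and Prdm12. The table is not complete, and 203 of the 1115 members with a single host (18.2%) lay in a gene with no start in it. Another region often lay close to a member without a start. Of these members, 193 of 545 (35.4%, 31.4 to 39.6) had another region summit within 5 kb, beside 78 of 541 (14.4%, 11.6 to 17.7) with a start and 9.77% of gene-end regions. No genome sequence of this build was used here, so the bases under these members are not described.

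Starts inside coding genes offer a view from the other side. After starts of a gene within 500 bp of each other were merged, 28973 starts remained, of which 4412 (15.2%) had a region summit within 1 kb. Among 3396 starts inside their own gene and over 1 kb from any coding end the count was 516, a share of 15.2% (14.0 to 16.4), and for 469 of them that region was a member. Among 15239 starts at gene ends it was 3334 (21.9%, 21.2 to 22.5), and among 2507 starts of long noncoding RNAs inside coding genes it was 106 (4.23%). The share for internal starts as a whole was thus below that for starts at gene ends, with intervals that do not overlap.

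Base composition separated occupied from unoccupied internal starts. A window was called CpG-rich when its GC content was at least 50% and its ratio of observed to expected CpG at least 0.6. Of the 516 internal starts with a region, 430 (83.3%) were CpG-rich, with a median of 29 CpGs, beside 641 of 2880 (22.3%) without a region, with a median of 6. At gene ends the shares were 89.6% and 36.8%. Among CpG-rich starts alone, 430 of 1071 internal starts (40.1%, 37.2 to 43.2) and 2988 of 7374 gene-end starts (40.5%, 39.4 to 41.7) had a region. Among the other starts it was 3.70% and 4.40%. Within each class of composition, internal and gene-end starts were therefore occupied at shares whose intervals overlapped. Expression of these transcripts in spermatocytes was not measured in these files.

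**Figure D5:**
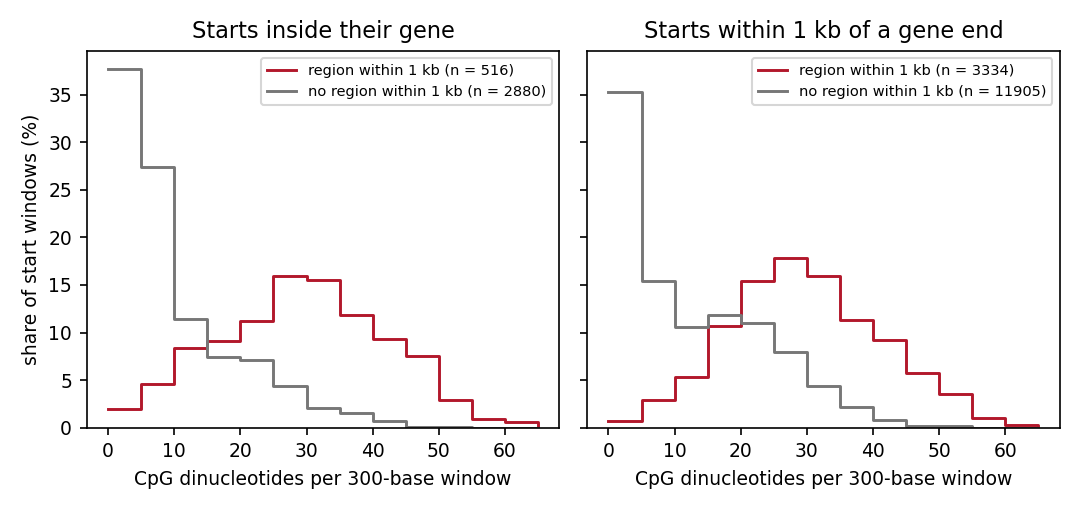
Number of CpG dinucleotides in the 300-base start window (horizontal) as a share of windows (vertical, percent) for starts inside their gene on the left and at a gene end on the right, with a region within 1 kb in red and without in grey. The median is 29 CpGs with a region at either kind of start, against 6 without at internal starts and 9 without at gene ends.

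Short motifs were searched on both strands of the windows, and the shares below are for CpG-rich windows only. The GC box GGGCGG was in 81.4% (77.4 to 85.0) of the 430 internal windows with a region and 72.9% (69.2 to 76.3) of the 641 without, beside 76.0% of all 9683 CpG-rich windows of the table and 35.6% of all 28973 windows. Gene-end windows had a like gap, with 81.6% and 74.2%. The E-box CACGTG was in 11.9% (8.96 to 15.3) and 8.42% (6.39 to 10.8) of internal windows, beside 11.4% of all CpG-rich windows and 7.09% of all windows. In internal windows, the intervals with and without a region overlapped for the E-box and for the other motifs that follow. CCAAT was in 28.8% and 31.2% (35.5% of all CpG-rich windows, 37.3% of all windows), the ETS motif CCGGAAG in 13.7% and 15.9% (19.01%, 8.79%), the TATA box TATAAA in 3.26% and 4.68% (4.65%, 13.9%), the cyclic AMP response element TGACGTCA in 2.09% and 2.65% (3.70%, 1.79%) and the NRF1 motif in 1.86% and 1.56% (2.38%, 0.918%). In gene-end windows the intervals with and without a region did not overlap for the E-box, with 13.3% and 10.7%. Nor did they there for CCAAT (34.9% and 38.5%) or the ETS motif (17.9% and 22.3%). For the TATA box, the cyclic AMP response element and the NRF1 motif they overlapped there too. The GC box, the E-box, the ETS motif, the cyclic AMP response element and the NRF1 motif each hold a CpG.

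Of genes with both an outer and an inner start, most had a region at neither and few had one at both. Of 967 genes with a start within 1 kb of their 5′ end and another over 3 kb inside, 225 (23.3%) had a region at the outer start only, 81 (8.38%, 6.71 to 10.3) at an inner start only, 17 (1.76%) at both and 644 (66.6%) at neither. An inner start had a region in 7.02% (4.15 to 11.0) of genes with an occupied outer start and in 11.2% (8.97 to 13.7) of the others, with intervals that overlap. Ranked by the member at the inner start, Kdm2b, Clip4, Celf2, Mbnl1, Mxi1, Tnfrsf19 and Ccnd3 led the genes with a region at the inner start only. Satb1, Gatad2a and Pcgf5 led those with a region at both. Ccnd3 encodes cyclin D3, Satb1 a genome organiser, and Gatad2a a subunit of the NuRD deacetylase complex.

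The members fell in 1045 coding genes, 5.71% of the 18291 on chromosomes 1 to 19 that are longer than 2 kb. The share rose with gene length. It was 2.47% in the shortest of 4 equal bins of genes (up to 9.11 kb), then 3.85%, 5.25% and 11.3% in the longest (over 51.6 kb). The median length was 50.01 kb for hosts of members with a single host and 21.5 kb for all genes over 2 kb. A region also lay at an end of the host for 266 members (23.5%). By gene this was 237 of 1012 hosts (23.4%, 20.8 to 26.2), near the 22.4% of all coding genes over 2 kb. The share of genes with a region at an end also rose with length, from 16.4% in the shortest bin to 30.6% in the longest. Hosts were longer than genes at large, and these shares were not matched for length.

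Most hosts held a single member: 920 of the 1012 had 1, 81 had 2 and 11 had 3. Among those with 3 was Mbnl1, which encodes a splicing regulator, where a strong region with folds of 12.2 and 17.2 at the inner start was flanked by weaker ones with 4.64 and 3.36 upstream and 3.93 and 3.36 downstream. Garem2 held a region with 11.7 and 18.1 and 2 others with 3.25 and 4.03, and 3.21 and 4.03. The last of these had a q-value above 0.05 in replicate 1 (−log10 q of 1.01). Mxi1, which encodes a MAX partner and antagonist of MYC, held 1 with 14.3 and 12.2 at a start 148 bp away and 2 weaker ones. The weakest Mxi1 member, with folds of 2.86 and 2.69, had q-values above 0.05 in both replicates (−log10 q of 0.437 and 0.314). In Sptbn4, a spectrin gene, the 3 members had folds of 10.1 and 12.4, 8.93 and 9.40, and 6.07 and 6.71, so that none dominated. Shh, the Sonic hedgehog ligand gene, held 3 within its 10.3 kb, with folds of 8.81 and 11.4, 8.21 and 10.4, and 3.57 and 4.70.

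A further 9 members lay in the protocadherin gamma cluster on chromosome 18, where alternative first exons of adhesion proteins share downstream exons and the annotated genes overlap. Each had between 7 and 22 host genes, and their folds ranged from 2.98 to 8.57 in replicate 1 and from 3.30 to 6.84 in replicate 2. The strongest lay at chr18:37732362-37733567, near Pcdhgb5. Their distance from the nearest annotated coding end was between 1089 and 2195 bp. Because the genes nest, this distance depends on which forms are annotated.

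Noncoding genes were near some members. The summit lay within 1 kb of the end of a gene that is not protein-coding for 165 members (14.6%, 12.6 to 16.8), beside 16.4% of all regions, 14.9% of gene-end regions and 38.5% of regions outside genes. Of the base pairs that meet the position rule, 2.202% lie that close. The genes were long noncoding RNAs for 139 members. The best ranked of these members were the Nup210 region, 354 bp from Gm30364, and the Acot3 region. They were followed by Clock, the circadian activator gene (14.7 and 16.8), 670 bp from Gm7467 and 342 bp from a Clock start, by Clip4 (14.6 and 16.8), 73 bp from Gm30140, and by Dpysl2 (13.2 and 20.5), 207 bp from Gm5464. A microRNA gene end was near 9 members, among them Mir148a, 773 bp away in a region with folds of 4.49 and 5.43, and Mir1893, 475 bp away inside Epc1 with 7.14 and 7.99. These microRNAs were chosen for naming after their values were seen.

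Gene lists were set beside the 5.71% background, as counts of hosts among genes over 2 kb. The share of hosts rose with gene length, and the part of length in these counts was not tested. Among chromatin genes, histone demethylases had 5 hosts of 17. These were Kdm2b, Jmjd1c with folds of 8.67 and 5.59, Kdm4c with 9.80 and 4.47, Kdm2a with 6.79 and 4.77, and Kdm6b. The Jmjd1c and Kdm4c summits lay 160 bp and 12 bp downstream of a start of the same gene. Chromatin remodelers had 6 of 23, led by Chd9 with 9.68 and 5.43. Histone methyltransferases had 5 of 29, led by the H3K4 methyltransferase gene Kmt2d with 9.56 and 9.40, and acetyltransferases and bromodomain proteins had 3 of 19, led by the BET gene Brd3 with 11.0 and 8.44. Both lay near a start of their own, at 207 bp and 469 bp upstream. The exact intervals were 10.3 to 56.0% for demethylases, 10.2 to 48.4% for remodelers and 5.85 to 35.8% for methyltransferases. That of acetyltransferases and bromodomain proteins, 3.38 to 39.6%, included the background. Demethylase, remodeler and methyltransferase genes had median lengths of 69.1, 88.1 and 50.9 kb. Their intervals included the 11.3% host share of the bin of longest genes.

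Genes of ZFP541, KCTD19 and the HDAC1/2 complexes had 3 hosts of 25, namely Gatad2a with 11.1 and 17.5, Mta1 with 3.08 and 4.70, and Mbd3 with 4.64 and 2.77. Only the Gatad2a region, 177 bp downstream of a Gatad2a start, was above the median member in both libraries. The Mta1 peak of replicate 1 and the Mbd3 peak of replicate 2 had q-values above 0.05 (−log10 q of 1.01 and 0.704). Another region summit lay 466 bp from the Mta1 summit and 832 bp from the Mbd3 summit. All 3 hosts also had a region at an end. Of the 25 genes of this list 14 (56%) had one, beside 22.4% of all coding genes over 2 kb. Other deacetylases and their corepressors had 3 of 16, the class IIa genes Hdac4 (7.86 and 7.05), Hdac9 (5.86 and 6.71) and Hdac7 (5.24 and 6.04). DNA methylation genes had 3 of 13. The exact host intervals of the complex genes (2.55 to 31.2%), the other deacetylases (4.05 to 45.6%) and the DNA methylation genes (5.04 to 53.8%) include the 5.71% background. Dnmt3a, a de novo methyltransferase gene, had 7.01 and 12.1 at 586 bp from a start, Zbtb38, which encodes a reader of methylated DNA, had 8.06 in replicate 2 and 4.9999 in replicate 1 at 80 bp, and Dnmt1, the maintenance methyltransferase gene, had 6.07 and 5.71 at 106 bp.

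Germ cell lists lay on both sides of the background. Meiotic recombination genes had 0 of 32 (exact interval 0 to 10.9%). Of the 32, 9 (28.1%) had a region at an end, beside 22.4% of all coding genes over 2 kb. Cohesin, axis and synaptonemal complex genes had 2 of 23, the cohesin subunit gene Stag1 (10.7 and 6.64, 21 bp upstream of a start) and the cohesin release factor gene Wapl (5.24 and 8.06). Spermiogenesis and flagellum genes had 1 of 25, the dynein heavy chain gene Dnah2 (5.71 and 3.69). The piRNA genes Fkbp6 (7.49 and 7.58) and Tdrd7 (3.57 and 4.48) were 2 of 22, and the spermatogonial genes Rarg (5.56 and 4.77) and Id4 (5.45 and 3.36) were 2 of 21. Transcription regulators of pachytene cells and spermatids had 4 of 21: Rfx3 with 11.8 and 8.39, Hsf2 with 8.85 and 10.4, Tbpl1 with 5.79 and 4.36, and Rfx4 with 4.64 and 3.69. The exact interval of each of these 6 shares of hosts includes the 5.71% background.

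Among transcription factors, a list of basic helix-loop-helix factors, Id proteins and TCF/LEF genes had 8 hosts of 17 (47.1%, 23.0 to 72.2), the highest share of the 19 lists. They were Mxi1, Tfeb (6.79 and 7.05), Tcf4 (6.79 and 4.42), Tcf12 (4.29 and 5.04), Id4, Mnt, Lef1 and Tcf7l2. Of these, Mxi1, Tfeb and Mnt are leucine zipper members of the MAX and MiT families, so that E proteins, Id proteins and TCF/LEF genes supply the other 5. The list's median gene length was 36.9 kb, beside 21.5 kb for all genes, and the part of length in this count was not tested. Zinc finger factors outside the KRAB families had 11 of 41, led by Casz1, Sp3 (12.1 and 11.4), Zfpm1 (11.2 and 12.1) and Zeb1 (12.7 and 9.66). Developmental factors had 5 of 45, among them Pax5 (7.50 and 8.06), Tbx1 (7.14 and 7.38), Sox1 (8.21 and 6.71) and Tbx3 (5.24 and 7.15). The exact interval of the developmental factors, 3.71 to 24.1%, included the background, and that of the zinc finger factors, 14.2 to 42.9%, did not.

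MAP kinase and small GTPase genes had 6 hosts of 34, led by Map3k1 (8.93 and 13.1) and Arhgap23 (7.71 and 8.73). Long neuronal genes, with a median length of 1098 kb, had 7 of 31, among them the calcium channel genes Cacna1a (11.9 and 10.1), Cacna1c (8.93 and 10.1) and Cacna1h (6.75 and 7.38). Imprinted genes had 3 of 30, with an exact interval of 2.11 to 26.5% that includes the background. The intervals of the MAP kinase and GTPase genes (6.76 to 34.5%) and of the long neuronal genes (9.59 to 41.1%) lay above it. Both included the 11.3% host share of the bin of longest genes. The MAP kinase and GTPase genes had a median length of 73.4 kb. The Grb10 region had 8.13 and 17.2, and the Gnas region had 6.43 and 8.06 at 556 bp from a Gnas start. The Igf2r region had 4.29 and 3.36 and lay 389 bp downstream of the start of Airn, the long noncoding RNA that silences Igf2r on the paternal allele, where the start window held 3 CpGs. Airn was singled out after its values were seen.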

How the data were processed

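Per the submitters' processing notes, the authors' tools included MACS2 2.2.6, deepTools 3.5.0, Bowtie2 2.3.5, cutadapt 2.6, Picard and SAMtools 1.10, on mouse build mm10. The sources used here give neither settings nor the control behind the peak calls. The deposited lists hold 1 line per peak and library, with an integer score, the ratio of the peak to the local background (fold), its −log10 q and −log10 p, and the summit. Replicates were called separately. Depth is unknown.

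Peaks were joined, classed and counted in Python 3.11.15 with pandas 2.3.3, numpy 2.4.6 and scipy 1.17.1, against the RefSeq gene table of GRCm38.p6, without 340 entries below 3 Mb whose coordinates may be those of scaffolds. The joining and classing code was tested on simulated peaks. Shares have 95% Clopper-Pearson intervals and no test was made. Coordinates are 1-based, and exons and introns were not used here. The gene lists matched 501 of 527 names. Named are the 15 best ranked members, the 5 widest, the 5 farthest from a coding end, the 5 nearest inside and outside 1 kb, hosts with most members (up to 5), up to 4 hosts per list, up to 5 at noncoding ends and 3 dropped regions. A member that the rule names is not reported here. The genes with occupied inner starts and the start windows were added after the start table was seen. Members and lists were chosen with earlier results of these data known. Alternatives covered peak thresholds, overlap, distances, summits and each replicate alone.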

Additional observations from a re-analysis of the deposited data

How the results depend on the processing

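Of 105 alternative values for 10 results, 56 stayed within the spread of the reported one (1.5 times for a count, the exact interval for a share, 1 SD of the replicates' medians for a fold), and the ones given next did not. The results were 1130 members, 21.5% of regions, median folds of 5.36 and 5.71, 1045 hosts, 14.6% near a noncoding end, 23.5% with a region at a host end, 49.8% near a start, and 63.5% and 40.6% of peaks shared. With a −log10 q of at least 5 they were 576 members, folds of 7.85 and 8.06, 580 hosts, 8.16% at a host end, 57.3% near a start, and 85.8% and 77.0% shared. At 10 or more they were 332 members, folds of 9.64 and 10.1, 341 hosts, 6.33% at a host end and 58.3% near a start. With a reciprocal overlap of 50% they were 736 members, 20% of regions, folds of 6.23 and 6.71, 16.0% at a host end, and 34.0% and 24.4% shared. Beyond 500 bp from coding ends there were 1762 members (33.5% of regions, 1644 hosts), with 13.5% at a host end and 59.8% near a start. Beyond 2 kb there were 723 (13.8%, 677 hosts), with 26.8% at a host end. In these settings a region at a host end was one within 500 bp or 2 kb of it, in place of 1 kb. Keeping away from noncoding ends gave 18.4% of regions and 45.4% near a start. A q-value of at most 0.05, chosen after seeing the data like all alternatives for the share near a start, gave folds of 5.86 and 6.38 and 19.05% at a host end. With each wild-type replicate left out in turn the values ranged from 2208 to 3072 members, 27.7% to 30.4% of regions, 1701 to 2296 hosts, 9.38% to 11.5% near a noncoding end, 42.3% to 49.2% at a host end and 35.0% to 27.8% near a start, with median folds of 3.93 (replicate 1 alone) and 3.69 (replicate 2 alone). Each replicate alone thus gave about 2 to 3 times as many members. In these settings no overlap was asked, and each peak counted as its own region without joining.

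No paired analysis was possible because 1 knockout library stood beside 2 wild-type libraries and no result came from a test. Depth is not recorded in peak lists, so whether a missing peak lay below detection cannot be told. Every share rests on RefSeq coding gene ends and on a start table that is not complete.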
